A study of Drosophila melanogaster with 2 samples.

Results

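The genes described here encode the proteins of the cytoplasmic ribosome. They were taken as every protein-coding gene on the chromosome arms whose symbol begins with RpL, for the large subunit, or RpS, for the small subunit, followed by a letter or digit. This gave 92 genes, 54 large-subunit and 38 small-subunit, among 13945 protein-coding genes in the Ensembl models of Drosophila melanogaster. Binding of Jra to their promoters was read from a ChIP-seq experiment, in which chromatin attached to a protein is precipitated and sequenced. The animals were from a transgenic strain with Jra fused to GFP at the C terminus, and an antibody against GFP was used. Whole animals of both sexes were pooled at the wandering stage of the third larval instar, and chromatin was sheared by sonication. The samples form 1 group of 2 replicates that the labels call biological, numbered 1 and 3. There was no second condition, so the spread is given by showing both replicates and no test between conditions was possible. Because whole larvae were used, the values average over all tissues, and no cell type could be assigned. The tag is carried by a transgene, and the labels do not say which promoter drives it.

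Most ribosomal proteins assemble with ribosomal RNA in equimolar amounts, and their genes are transcribed strongly and together in growing cells. In Drosophila, loss of 1 copy of many of these genes gives the Minute phenotype of slow development and thin bristles, and cells with a lost copy are removed by their normal neighbours in cell competition. Most ribosomal protein genes of flies start transcription at a TCT initiator, a polypyrimidine stretch in place of the usual initiator, and several have a paralogue with germline expression. Jra is the fly Jun protein, the partner of the Fos protein kay in the AP-1 factor, a target of JNK signalling.

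The authors deposited a list of regions for each replicate, a list made from both replicates pooled, and a shorter list. The shorter list passed the irreproducible discovery rate procedure (IDR), which uses how alike regions rank in the replicates. Its 3827 regions were the 3827 strongest of the pooled list, so a single region in it need not be strong in both replicates. The IDR list held 3827 regions, 3803 of them on nuclear chromosomes, and the other lists held 29999 to 30000 regions that include background. A gene was counted as having a promoter peak where the summit of a region, the position the authors gave as its highest point, was at most 1000 bp away from any annotated transcription start site (TSS) of the gene. The signal of a region is the value the authors' peak caller gave it. Its scale is that of the list it stands in, so signals are compared within a list only. Read depth is unknown, and the control library was not analysed here.

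Of the 92 genes, 57 (62%) had a promoter summit in the IDR list, beside 20.4% of all protein-coding genes. The share was 64.8% for the large subunit (35 of 54 genes) and 57.9% for the small subunit (22 of 38). In the 3827 strongest regions of replicate 1, 64 members (69.6%) had a summit, beside 21.3% of all genes, and in as many regions of replicate 3, 48 members (52.2%), beside 20.4%. Both replicates thus placed the ribosomal protein genes above the background share. For 42 members (45.7%) the strongest regions of both replicates had a summit at the promoter, beside 15.8% of all genes. The large subunit had the higher share in each of these selections. The counts were 39 of 54 against 25 of 38 genes in replicate 1, and 31 against 17 in replicate 3. In both replicates they were 28 (51.9%) against 14 (36.8%). The gap between the subunits in the IDR list, 64.8% against 57.9%, was smaller than the gap between the replicates within either subunit, since the large-subunit share was 72.2% in replicate 1 and 57.4% in replicate 3, and the small-subunit share 65.8% and 44.7%. Among IDR peaks above the median signal, 22 of the 54 large-subunit and 8 of the 38 small-subunit genes had a summit, beside 12.1% of all genes.

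**Figure D1:**
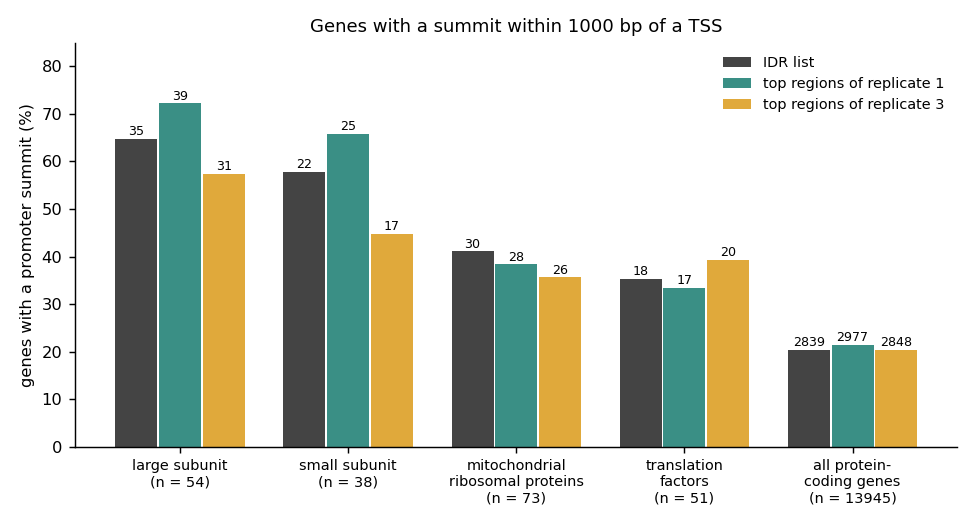
Share of genes in percent (vertical axis) with a promoter summit, for 5 gene lists, by the IDR list and by the 3827 strongest regions of each replicate. Bars start at 0 and the number over each bar is the count of genes; both subunits stand above all protein-coding genes in every list, and replicate 1 gives the higher bar for both.

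With all regions counted, however weak, the lists cover many more promoters. The pooled list had a promoter summit for 73 members (79.3%), beside 48.9% of all genes. The whole list of replicate 1 had one for 79 (85.9%), beside 52.7%, and that of replicate 3 for 73 (79.3%), beside 51%. The order of the subunits was not the same in each whole list: in the pooled list the small subunit had the higher share, 81.6% (31 of 38) against 77.8% (42 of 54), while in replicate 1 the large subunit had 87% and the small 84.2%, and in replicate 3 they had 79.6% and 78.9%. At least 1 of these lists had a summit for 80 members (87%), beside 60.6% of all genes, which left 12 members with none.

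The start-site sequences hold a motif found in many of the members, but not in all. They are shown, among members with the motif, for 4 genes with strong promoter summits and then for 4 that were in no list. Each holds the 15 bases before an annotated start and the first 15 transcribed bases, 5′ to 3′, with CTTT, the core of the TCT initiator, in capitals (Release 6 sequence, the dm6 build).
RpL34b, chr3R:9401188-9401217, minus strand: tttctagtttcgtctCTTTgaggtatgcac
RpL7, chr2L:10201085-10201114, plus strand: gtatagcacgtttccggtCTTTctttccct
RpL28, chr3L:3222944-3222973, minus strand: tgtcgggctgccatatttCTTTccttcttg
RpS25, chr3R:11216273-11216302, minus strand: ggccgtttccgccctccatCTTTctgcatt
RpL24, chr2L:13395078-13395107, minus strand: gtttccacttccgttttCTTTtcttttcgt
RpL27A, chr2L:4458303-4458332, minus strand: ccgcagccaacttcgcttCTTTctttccta
RpS26, chr2L:18443214-18443243, minus strand: gggtgcgtccacactattttCTTTcttttc
RpS27, chr3R:25247458-25247487, minus strand: ctgcgatttaccccacttcCTTTtccgtgt
These genes were picked among members with the motif, so its presence in all of them follows from that choice. CTTT began within 5 bases of an annotated TSS, on the strand of the gene, in 58 of the 92 members (63%) and in 8.07% of all protein-coding genes. Among members with an IDR summit the count was 35 of 57 (61.4%), and among those without one it was 23 of 35 (65.7%). The 2 shares were close to each other. The count depends on which starts are read, since with the most upstream TSS of each gene only it was 31 of 92 (33.7%), beside 5.64% of all genes.

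The DNA replication-related element (DRE), TATCGATA, is bound by Dref, a factor of many housekeeping promoters, and it was the word found most often near the members' summits. The 101 bases centred on the summit are shown for 4 members in which this window lies before the start of the gene, in the direction of the gene, with the DRE in capitals.
RpL34a, chr3R:26059290-26059390, minus strand: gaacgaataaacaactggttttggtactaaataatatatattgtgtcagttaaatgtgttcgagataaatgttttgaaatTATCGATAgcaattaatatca
RpL28, chr3L:3222995-3223095, minus strand: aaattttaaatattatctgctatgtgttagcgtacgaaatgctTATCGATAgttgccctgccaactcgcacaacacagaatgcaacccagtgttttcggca
RpS25, chr3R:11216307-11216407, minus strand: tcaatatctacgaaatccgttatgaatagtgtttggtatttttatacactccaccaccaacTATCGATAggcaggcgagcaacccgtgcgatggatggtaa
RpL6, chr3R:31596376-31596476, minus strand: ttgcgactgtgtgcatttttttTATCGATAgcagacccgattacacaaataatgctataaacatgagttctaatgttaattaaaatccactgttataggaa
In RpL28 the element started 7 bases before the summit, and in RpS25 it started 11 bases after it. Of the 62 separate IDR peaks at members, 11 (17.7%) held a DRE within 50 bp of the summit, beside 4.97% of the 2437 IDR peaks at all protein-coding promoters. Over the promoters from 250 bases before to 50 after a TSS, read on both strands, a DRE stood in 21 of 57 members with an IDR summit (36.8%) and in 7 of 35 without (20%). The same promoter window held it in 10.2% of all genes, and in 18.3% of all genes with an IDR summit.

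Motif 1, whose core GGTCACACT is the binding site of M1BP, was the second such word. It is shown in capitals, on either strand, in the 100 bases before the start of RpLP1, which encodes an acidic stalk protein of the large subunit, and of RpS9, a small-subunit protein.
RpLP1, chr2L:419852-419951, plus strand: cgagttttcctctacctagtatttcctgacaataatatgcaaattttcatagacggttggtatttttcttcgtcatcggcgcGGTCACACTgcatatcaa
RpS9, chr3L:9511532-9511631, minus strand: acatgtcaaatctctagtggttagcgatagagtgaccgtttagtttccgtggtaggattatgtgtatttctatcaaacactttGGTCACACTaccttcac
The core lay within 50 bp of the summit at 5 of the 62 member peaks (8.06%), at RpL7, RpLP1, RpS9, RpL37A and the second peak of RpS14b, beside 1.11% of all promoter peaks. Over whole promoters it was found in 10 members (10.9%), beside 6.78% of all genes. The E box CACGTG, a binding site of Myc and its partner Max, was in the promoters of 15 members (16.3%), beside 5.3% of all genes. With the most upstream TSS only, 8 members held it, beside 4.2%. Of the 15, 13 were among the 54 large-subunit genes and 2 among the 38 small-subunit genes, and 1 of the 62 summits, that of RpL7, had the word within 50 bp.

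The AP-1 site, TGACTCA or its complement TGAGTCA, was in none of the 92 promoters and within 50 bp of none of the 62 summits. It stood in 3.43% of all promoters, in 5.95% of the promoters of all genes with an IDR summit, and near 3.41% of all promoter summits. Within 50 bp of the summits the median GC content was 43.6% for members and 38.6% for all promoter peaks, and a difference in base composition changes how often a given word occurs. A word match describes the letters in the window and does not show that a factor is bound there.

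The members' peaks were not high among promoter peaks. The strongest promoter peak per gene had a median signal of 106 over the 57 members, 121 for the large and 94.6 for the small subunit, and of 117 over all 2839 genes with a promoter summit. Members ranged from 71.2 to 337, while the highest nuclear signal in the IDR list was 1184. With the IDR list divided by rank into 4 parts of equal size, 11 members fell in the strongest part, 19 in the next, 12 in the third and 15 in the weakest. Over all 2839 genes with a promoter summit the counts were 933, 751, 611 and 544. The best placed member was at rank 112. The members thus had a larger share with a promoter peak than all genes, and a slightly lower median signal where they had one.

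**Figure D2:**
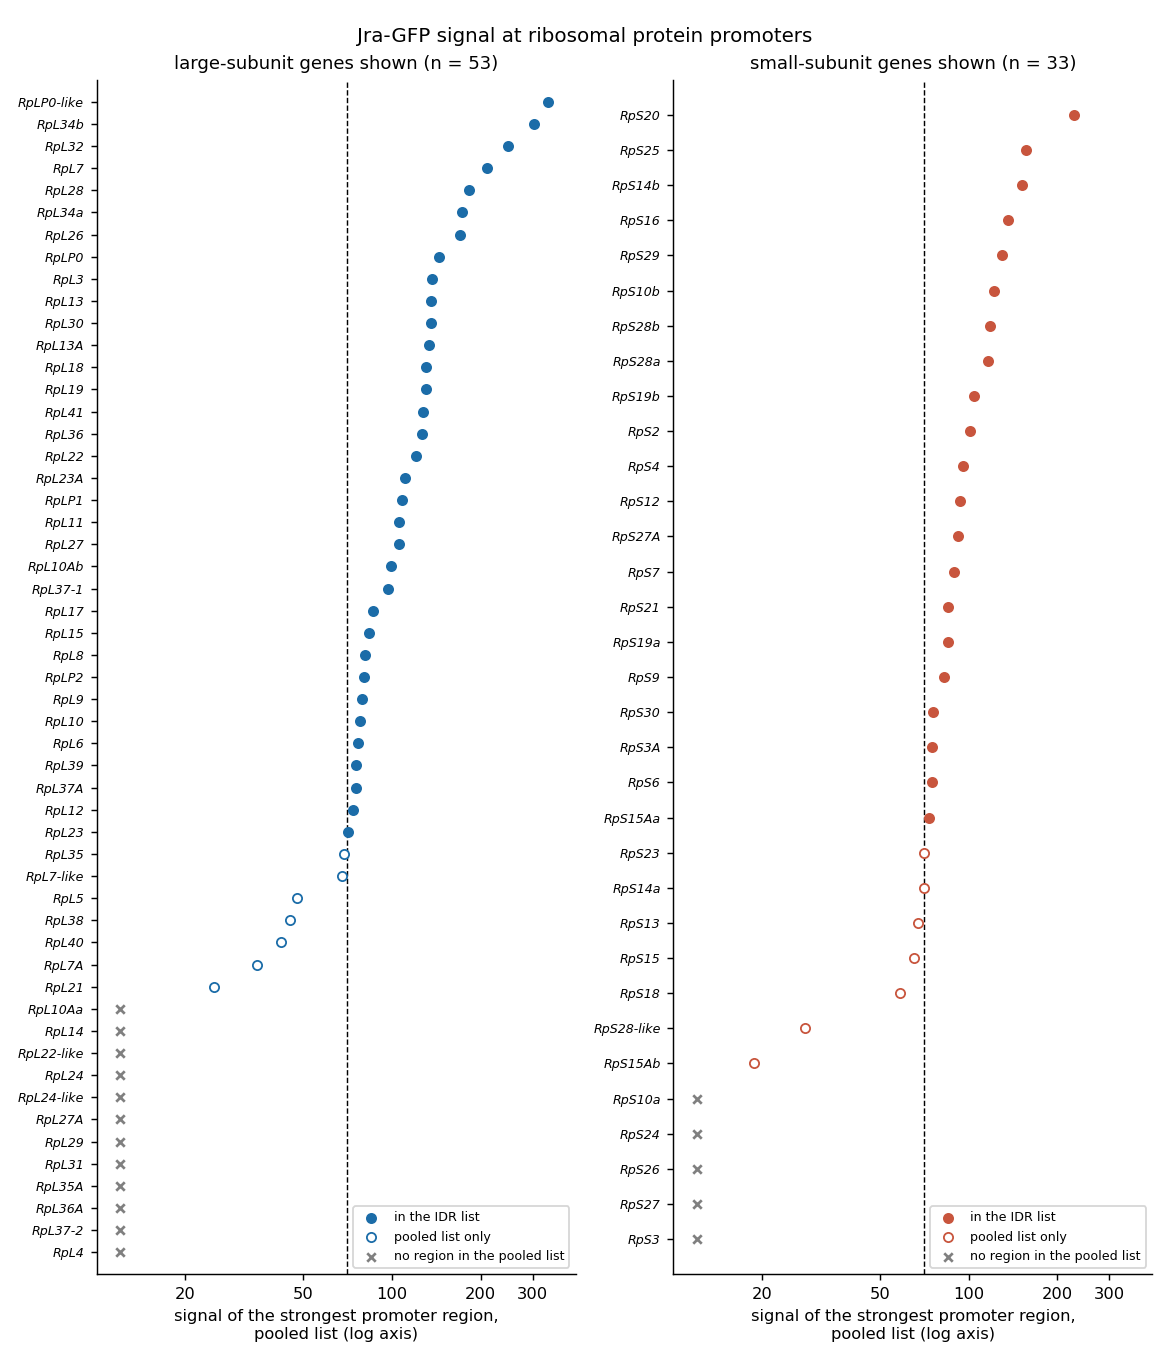
Signal of the strongest promoter region of each gene in the pooled list (horizontal log axis, in the units of that list) for 53 large-subunit and 33 small-subunit genes, ordered by signal. Filled points are in the IDR list, open points in the pooled list only, crosses have no region in the pooled list, and the dashed line marks the lowest IDR signal, 70.6; of the 86 genes drawn, 55 are in the IDR list and 17 have a cross.

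Among the large-subunit genes, the highest signal was at RpLP0-like, 337, with 230 in replicate 1 and 112 in replicate 3. Its protein resembles the stalk protein RpLP0 and is counted among ribosome assembly factors. The summit lay 50 bp upstream of RpLP0-like and 37 bp from the TSS of 14-3-3zeta, so it could belong to either. It also lay 2523 bp from the summit at Jra itself, whose signal was 461, and a part of the transgene in the signal at this locus was not tested.

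RpL34b, with a peak at chr3R:9401198-9401531, had a signal of 303, with 180 in replicate 1 and 123 in replicate 3. RpL7, which has a peak at chr2L:10200809-10201248, reached 210, with 130 and 78.5. RpL34b had a second IDR summit of signal 135 at 892 bp past its nearest TSS. In both genes the nearest TSS was their own, although RpL7 starts 30 bp from Ripalpha. RpL32, a common reference gene in fly expression studies under its older name rp49, reached 247, with 144 and 103. Its summit was nearer to the TSS of a neighbour, CG7943, than to its own.

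RpL28 had 2 promoter summits. The stronger, 183, with 109 in replicate 1 and 71.4 in replicate 3, was 32 bp from the TSS of the initiation factor gene eIF1, and the weaker, 161, was 85 bp upstream of RpL28. RpL34a had 173, with 99.2 and 68.8, and RpL26 170, with 109 and 57.1. In both replicates these 3 genes had lower signals than RpL34b, RpL32 and RpL7.

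A further 14 large-subunit genes lay between 100 and 150. RpLP0, the scaffold of the stalk that recruits elongation factors, had 144, RpL3, which lies at the peptidyl transferase centre, 137, and RpL13 and RpL30 both 136. RpL13A had 134, RpL18 and RpL19 both 131, RpL41 128 and RpL36 127. RpL22 had 121, RpL23A, at the exit of the peptide tunnel, 111, and RpLP1 108, while RpL11, which binds the 5S ribosomal RNA, and RpL27 both had 106. RpL13 starts 84 bp from Dref, and their shared summit was 23 bp from the TSS of Dref and 107 bp from that of RpL13. RpL23A stood apart, since its peak had 82.9 in replicate 1 and no overlapping region in replicate 3.

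The other 13 large-subunit genes were below 100. RpL10Ab had 99.2, RpL37-1 96.9, RpL17 86.6, RpL15 83.7, RpL8 80.9 and RpLP2, the second acidic stalk protein, 80.2. RpL9 had 79.1, RpL10, which joins the subunit late in its assembly, 77.8, RpL6 77, RpL39 75.8, RpL37A 75.7, RpL12 73.9 and RpL23 71.2. Of the 3 stalk genes proper, RpLP0 and RpLP1 were within the strongest regions of both replicates, whereas RpLP2 was in those of replicate 1, at 47.2, and not of replicate 3, at 30.9. The cut at 3827 regions fell at a signal of 40.9 in replicate 1 and 35.9 in replicate 3.

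Among the small-subunit genes RpS20 was highest, at 227, with 150 in replicate 1 and 89.5 in replicate 3, and it was the 1 gene of its subunit above 200. RpS25 had 157, with 94.3 and 62.2, and RpS14b 152, with 105 and 41.7. All 3 had their own TSS nearest to the summit. All 3 were also in the strongest regions of both replicates, with RpS14b closest to the cut of replicate 3.

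Signals from 100 to 150 were found at 7 small-subunit genes. RpS16 had 136, RpS29 130, RpS10b 122, RpS28b 118, RpS28a 116, RpS19b 104 and RpS2 101. The other 12 were lower, among them RpS4 at 95.5, RpS12 at 93.6, RpS27A at 92, RpS7 at 89.2, RpS21 at 85.1, RpS19a at 84.9 and RpS9 at 82.7. RpS12 is the ribosomal protein that flies need for the elimination of Minute cells by cell competition, and RpS27A is made as a fusion with ubiquitin. RpS30 had 75.9, RpS3A, the 1 member on chromosome 4, 75.4, RpS6, the substrate of S6 kinase, 75, and RpS15Aa 73.2. Second, weaker IDR summits stood at -831 bp of RpS28b, with 108, and at -269 bp of RpS7, with 72.9. The RpS6 value belongs to a summit at -406 bp, 143 bp from the TSS of bys.

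In the replicates, the members' peaks were carried more often by replicate 1. Of their 62 separate IDR peaks, 42 (67.7%) overlapped one of the strongest 3827 regions of both replicates, 17 (27.4%) of replicate 1 alone and 3 (4.84%) of replicate 3 alone. Over all promoter peaks these shares were 70.6%, 16.3% and 11.4%. In 40 of the 61 member peaks with a region in both, the rank was better in replicate 1 (65.6%, beside 53% of all promoter peaks). RpS3A had 59.1 in replicate 1, above the cut, and 13.5 in replicate 3, at rank 17463, and RpS7 was the reverse, with 28.5 and 64.5. Across peaks, the Spearman correlation of the signals of the replicates was 0.45 over the 61 member peaks and 0.61 over 2400 promoter peaks. These are descriptions over peaks, which share the same pair of libraries.

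**Figure D3:**
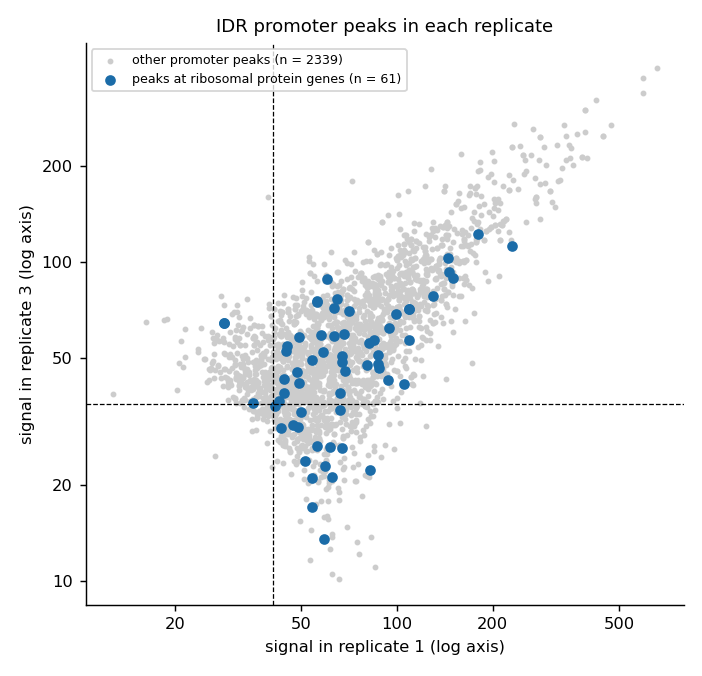
Signal of each IDR promoter peak in replicate 1 (horizontal) and replicate 3 (vertical), both on log axes and on the scale of each list, for 61 peaks at ribosomal protein genes (blue) and for the other promoter peaks (grey). Dashed lines mark the 3827th region of each replicate, at 40.9 and 35.9; 17 of 62 member peaks pass the vertical line but not the horizontal one, among them that of RpL23A, which has no region in replicate 3 and is not drawn.

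The members' summits lay close to the start. The median summit lay 50 bp upstream of the nearest TSS of the gene, with quartiles at -111 and -9, whereas the median over all genes with a promoter summit was 108 bp upstream. Summits within 100 bp of a TSS were found at 38 of 57 members (66.7%), beside 36.8% of all genes with a summit. The share of upstream summits, 80.7%, was close to that of all genes, 78.4%. The median was -72 bp for the large subunit and -43.5 bp for the small subunit. The median region width was 440 bp, and many regions, such as that of RpL10, had this width with the summit at the centre. The width thus does not measure how finely a summit was placed, which was not tested. In the strongest regions of replicate 1 alone the members' median was -36 bp, beside -100 bp for all genes. In those of replicate 3 alone it was -65 bp, beside -123 bp.

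**Figure D4:**
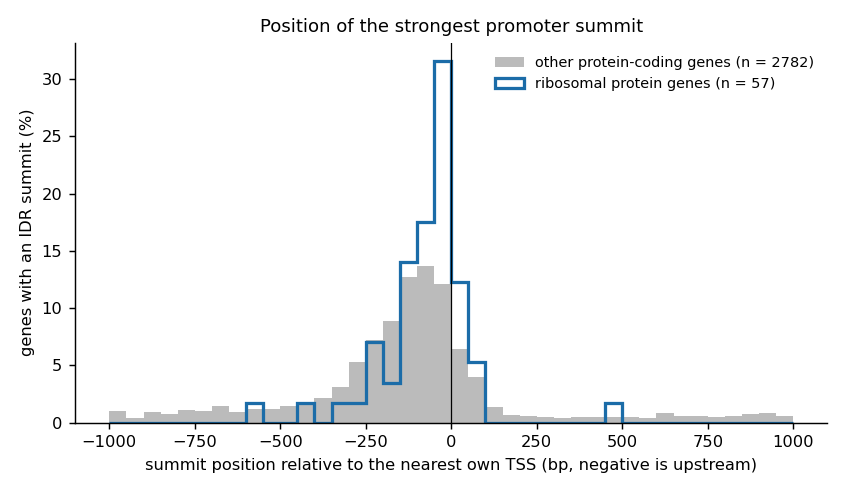
Position of the strongest IDR promoter summit relative to the nearest TSS of its gene, in bp with negative values upstream, in steps of 50 bp, as percent of the 57 ribosomal protein genes (blue outline) and of other genes with a summit (grey). The blue outline is concentrated just upstream of 0, with a median of -50.

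Many ribosomal protein genes lie close to a neighbour, and a summit between neighbouring starts counts for both. The summit was shared with another protein-coding promoter at 36 of the 57 members (63.2%), beside 60.6% of all genes with a summit. At 48 members (84.2%, beside 73.7%) at least 1 summit had the member's own TSS as the nearest. Among the other 9 were RpLP0-like, RpL32, RpL13, RpL13A, RpL18, RpS28a, RpS19b and RpS6. The median signal was 128 at shared and 95.5 at unshared summits of members; within the large subunit these were 135 and 86.6, and within the small subunit 92.8 and 98.5. Summits were counted more often at genes with a close neighbour. Of the 34 members with no other start within 1000 bp, 20 had a summit (58.8%), beside 12.2% of all genes so placed. For the 58 members with a neighbouring start the count was 37 (63.8%), beside 31.3%.

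By chromosome, members with an IDR summit numbered 12 of 14 on 3L, 11 of 14 on X, 14 of 23 on 3R, 9 of 19 on 2L and 10 of 21 on 2R. The share over all protein-coding genes lay between 17.5% on chromosome 4 and 22.1% on 3R. Members with a summit had a median gene length of 1411 bp and those without one 1132 bp, while all genes with a summit had a median of 3417 bp and those without one 1969 bp.

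The 35 members without an IDR summit fell into 3 kinds. A first kind of 16 genes had a weaker region in the pooled list. The lowest IDR signal was 70.6, and shortly below it in the pooled list came, among others, RpS23 at 70.6, RpS14a at 70.4, RpL35 at 69.1 and RpL7-like at 67.8, while RpL23 at 71.2 and RpS15Aa at 73.2 were just inside. RpS23 had 58 in replicate 1 and 55.9 in replicate 3, so the gene had a summit in the strongest regions of both. These were different positions, at -671 bp in replicate 1 and in the pooled list, and at -136 bp in replicate 3. The rank of the RpS23 region in the pooled list, 3828, was the first past the end of the IDR list. Among the weakest of the 16 were RpS15Ab at 18.8, RpL21 at 25, RpS28-like at 27.9 and RpL7A at 35. The RpS28-like value belongs to a summit 733 bp past its start. The others include RpL5, the partner of RpL11 on the 5S ribosomal RNA, at 47.6. They also include RpL40, which like RpS27A is made as a fusion with ubiquitin, at 42.1. Both were picked for their role after their values were seen. The RpL40 value belongs to a summit at -652 bp, and a weaker pooled summit lay 62 bp from its TSS. CG3702 starts 602 bp from RpL40. The RpL7-like value belongs to a summit at -383 bp, and RpL7-like shares a start position with CG34164.

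A second kind of 7 genes had no region in the pooled list but had one in a replicate. RpL14, whose mutants are Minute, had a region of 172 bp with a signal of 168 in replicate 1, at rank 173 and 53 bp upstream of its TSS, yet no promoter region in replicate 3 or in the pooled list. RpL31 was in the strongest regions of both replicates, at 43.8 and 46.5. RpL35A had 43.7, RpS24 50.7 and RpL4 39.7 in replicate 1 and none in replicate 3, while RpL29 had 12.4 and 48.6. These genes were singled out after their values were seen. Of 70 members with a summit in the strongest regions of a replicate, 5 were missing from the pooled list (7.14%), and over all genes this share was 7.11%.

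The third kind were the 12 genes without a promoter summit in any list, among them RpL10Aa, RpL22-like, RpL24, RpL24-like, RpL27A, RpL36A, RpL37-2, RpS10a, RpS26, RpS27 and RpS3. The nearest summit of the pooled list was between 1015 bp, at RpL22-like, and 35970 bp, at RpL27A, from their TSSs. RpS3, RpS26, RpS27 and RpL27A are core ribosomal proteins outside the paralogue groups described next; a final capital A, as in RpS3A or RpS27A, names a different ribosomal protein. Of the 12, 6 had CTTT within 5 bases of a TSS, beside 58 of all 92 members (63%) and 8.07% of all genes. A DRE stood in 2 of the 12 promoters, beside 28 of the 92 (30.4%) and 10.2% of all genes. Another gene started within 1000 bp at 3 of the 12, beside 58 of the 92 and 5985 of the 13945 protein-coding genes. An absence means that no region was listed; with no coverage values, a weak signal there cannot be told apart from none.

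The paralogue groups, genes whose symbols differ by a final lower-case a or b, a number after a hyphen or the ending -like, numbered 13 with 27 members, of which 16 had an IDR summit. In 3 groups all members had one, in 9 groups some did and in 1 group, RpL24 with RpL24-like, none did. In the strongest regions of replicate 1, 5 groups had a summit at all members, 7 were split and 1 had none. In those of replicate 3 the counts were 2, 7 and 4. The whole pooled list split 4 groups, and the IDR list with summits counted for the nearest TSS only split 11. Members outside these groups had a summit in 41 of 65 cases (63.1%).

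In the groups with summits at every member, RpL34a had 173 and RpL34b 303, RpLP0 had 144 and RpLP0-like 337, and RpS19a had 84.9 and RpS19b 104. The RpS19b summit was 555 bp upstream of RpS19b and 173 bp from the TSS of CG5854, while that of RpS19a was 3 bp from its TSS. RpS19b is known for expression in germline stem cells.

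In some of the split groups the member without an IDR summit is known for expression in the gonads. RpL22 had 121, with 68 in replicate 1 and 59.5 in replicate 3, and RpL22-like, known from the germline, was in no list. RpS10b had 122, with 67.1 and 48.8, and RpS10a, known from the testis, was in no list.

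RpL7 had 210. RpL7-like had 67.8 at -383 bp, with 56 in replicate 1 at -436 bp and 23.2 in replicate 3 at -218 bp. RpL10Ab had 99.2, with 54 and 49.6, and RpL10Aa was in no list. RpL37-1 had 96.9, with 82 and 22.3, and RpL37-2 was in no list. In the RpS28 group, RpS28b had 118 with a summit 28 bp upstream, RpS28a had 116 with a summit 485 bp past its start, beyond the end of this 304 bp gene and 58 bp from the TSS of Mgat2, and RpS28-like had 27.9 in the pooled list. The RpS28-like summit lay 733 bp past its start. Counted by nearest TSS, RpS28b would be the 1 member of its group with an IDR summit of its own.

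RpS14a and RpS14b are tandem copies on X whose coding sequences were 97.8% identical, and RpS15Aa and RpS15Ab were 98.2% identical, against 45.9% to 78.2% in the other pairs. RpS14b had 152, with 105 in replicate 1 and 41.7 in replicate 3. RpS14a had 70.4 in the pooled list, with 40.9 and 30.9, so RpS14b was higher in both replicates. Near their starts, within 500 bp, the longest stretch common to RpS14a and RpS14b was 122 bases, and the sources used here do not say how the authors placed reads that match both copies. RpS15Aa had 73.2, with 48.8 and 30.5, and RpS15Ab had 18.8, with 18.1 in replicate 1 and no region in replicate 3. The 100 bases before the most upstream start of each RpS14 copy are shown with the DRE in capitals.
RpS14a, chrX:7933642-7933741, plus strand: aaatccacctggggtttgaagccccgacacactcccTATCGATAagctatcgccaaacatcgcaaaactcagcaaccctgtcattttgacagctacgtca
RpS14b, chrX:7934798-7934897, plus strand: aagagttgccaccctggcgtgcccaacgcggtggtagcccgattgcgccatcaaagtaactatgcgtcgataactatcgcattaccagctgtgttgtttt
The DRE stood before RpS14a, the copy with the weaker region, and not before RpS14b. RpS14b had a second IDR summit of signal 109 beyond the end of the gene, 760 bp past its nearest TSS, with a DRE and a Motif 1 core within 50 bp of it.

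**Figure D5:**
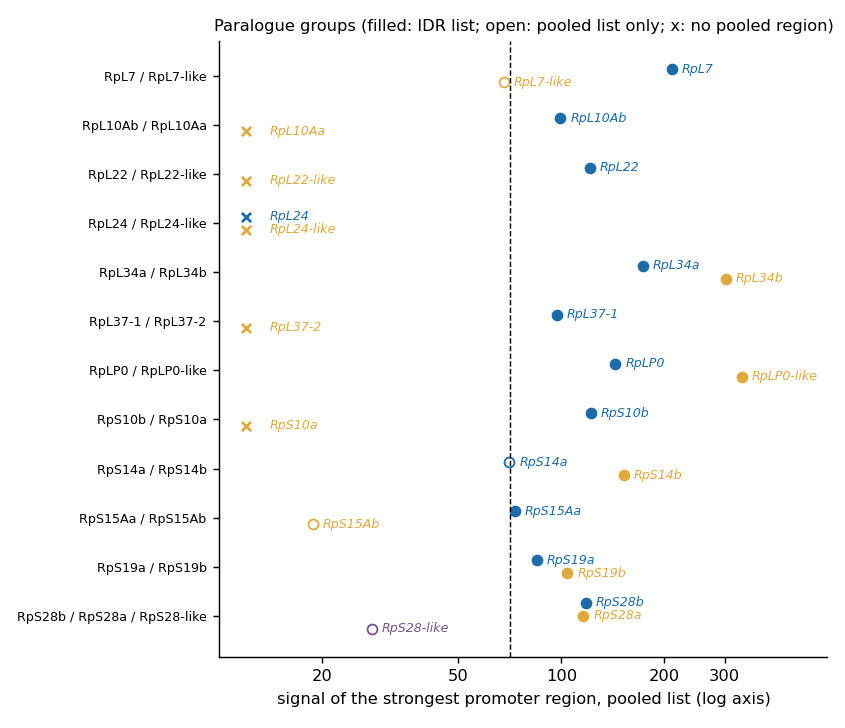
Signal of the strongest promoter region in the pooled list (horizontal log axis) for 25 genes of 12 paralogue groups. Filled points are in the IDR list, open points in the pooled list only and crosses have no pooled region; the dashed line is the lowest IDR signal, 70.6, and in 8 of the groups drawn the IDR list holds some members and not others.

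Genes of related function that the symbol rule leaves out were read in the same way. Of 73 mitochondrial ribosomal protein genes, 30 had an IDR summit (41.1%), and of 51 genes for translation initiation and elongation factors, 18 did (35.3%). These shares lie between the 62% of the cytoplasmic ribosomal proteins and the 20.4% of all genes. The median mitochondrial summit was at -125.5 bp, and 14 of the 30 genes had a summit with their own TSS as the nearest (46.7%). Of a list of 20 genes named for ribosome biogenesis, 4 had an IDR summit (20%), at Ns2 with 294, Rrp1 with 158, RIOK1 with 114 and bys with 75. Rrp1, a DNA repair endonuclease, and rin, an RNA-binding protein, stand on that list without such a role.

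Rack1, a scaffold protein of the small subunit, had 161, with 107 in replicate 1 and 52.7 in replicate 3, and sta, the fly RpSA, had 66 in the pooled list, with 46.2 and 21.3. Of the genes for factors of ribosomal protein and housekeeping promoters, Dref had 136, Trf2, which acts at TCT promoters, 117 and M1BP 98.4, and Myc had 64.8 in the pooled list only.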

How the data were processed

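Jra-GFP ChIP-seq region lists from 2 biological replicates (labels 1 and 3, 1 group) were used. The authors deposited a signal value for each region, and its scale differs between lists. The lists are on dm6, per the labels. No source used here names the aligner, the peak caller or the IDR threshold. The 3827 IDR regions were the 3827 strongest of the pooled list, and as many top regions were taken from each replicate. Left out were 24 mitochondrial IDR regions, the dm3 lists and the control library, which was not analysed here.

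Summits were assigned to every TSS within 1000 bp with Python 3.11.15, pandas 2.3.3 and numpy 2.4.6, and correlations used scipy 1.17.1. Coding sequences were aligned with Biopython 1.88. The assignment was tested on simulated data, with 200 of 200 planted summits handled as planted. No test statistic was computed: with 1 group and 2 replicates, counts, medians and ranges are given beside those of all 13945 genes. The members and lists were chosen with earlier results of these data known. Named with values are all members with an IDR summit, all members of paralogue groups, and the 5 highest and 5 lowest in the pooled list without one; others named were chosen after their values were seen. Some members counted here are not reported by name or plotted by name. Alternatives covered the TSS window, the TSSs used, nearest-gene assignment, stricter peaks, region overlap, the promoter window and each replicate alone. The labels call the replicates biological.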

Additional observations from a re-analysis of the deposited data

How the results depend on the processing

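Of 82 alternative values, 68 stayed within 1.5 times the reported count or within the spread of the replicates. Only the median distance could reverse, by a change of sign, and it did not. The order of the subunits was not scored. With IDR peaks above the median signal only, 30 members, 22 large-subunit and 8 small-subunit genes had a promoter summit (all genes 12.1%), 5 paralogue groups were split and the median signal was 136. With peaks in the strongest regions of both replicates, 38 members had one (all genes 14.9%), and the median signal was 130. Of these members, 26 were large-subunit and 12 small-subunit genes. With at least 50% of the peak covered in both, 37 members and 11 small-subunit genes had one (all genes 14.5%), and the median signal was 131. Leaving out a replicate gave median signals from 53.7 to 62, on the scale of the other replicate. With the most upstream TSS only, 8 promoters held an E box and 31 the TCT initiator. Over all genes the median signal, 117 in the main setting, was 156, 138 and 136 in these stricter settings, in the same order. Keeping only peaks above the median signal raises the median by construction. The stricter settings read fewer peaks and the most upstream setting fewer TSSs, and other causes of the shifts were not tested. The count of members with a summit was 56 without RpL7-like, RpL24-like and RpLP0-like, an alternative chosen after seeing the data. No paired analysis was possible because there is 1 group. The unknown depth limits every statement on absence, and 2 replicates limit every statement on spread.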
